A study of Mus musculus with 6 samples.

Results

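The Slc7 amino acid transporters and Slc3a2, the subunit that carries many of them to the cell surface, were followed in cells sorted from the olfactory bulb of Sox9 knockout (KO) and control mice. The 10 genes were taken by symbol from the 24421 genes listed in each library: the cationic transporters Slc7a1, Slc7a2 and Slc7a3, the light chains Slc7a5, Slc7a6, Slc7a7, Slc7a8, Slc7a10 and Slc7a11, and the heavy chain Slc3a2. All 10 were above 0 in every library and entered the test across genes. Gene expression was measured by bulk RNA-seq in 6 libraries of 1 mouse each, with 3 libraries a group. Every mouse, controls included, had received AAV-GFAP-iCre-P2a-TurboRFP in the bulb, a virus in which the GFAP promoter drives Cre recombinase together with the red fluorescent protein TurboRFP. The KO mice carried 2 floxed Sox9 alleles (Sox9fl/fl), whereas the controls were C57BL/6J mice with no floxed allele, so the groups differed in the floxed line as well as in recombination. The mice were adult males, and TurboRFP-positive cells were collected by FACS 4 weeks after the injection. The comparison asks which transporters change in these sorted cells when Sox9, a transcription factor of astrocytes, is deleted.

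Amino acids do not cross membranes unaided, and the Slc7 family supplies many of the carriers that bring them into cells. Its cationic members work alone and carry arginine, lysine and ornithine, whereas its light chains are exchangers that take one amino acid in for another and that reach the surface bound by a disulfide bridge to a heavy chain, in most tissues Slc3a2. In the brain these carriers handle essential amino acids such as leucine, the signalling amino acids glycine and serine, the arginine used for nitric oxide, and the cystine from which astrocytes make glutathione.

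In the KO libraries, 4 of the 10 genes were lower (Slc7a2, Slc7a5, Slc7a10 and Slc7a11), 3 were higher (Slc7a6, Slc7a7 and Slc7a8) and 3 were not called (Slc7a1, Slc7a3 and Slc3a2), while with the libraries scaled to the astrocyte markers 1 was lower and 9 were higher. That scaling moved the median log2 fold change of all genes tested by 3.57. A typical gene is thus also higher under it, and the count of 9 does not by itself set the members apart. Without that scaling the light chains split evenly, 3 lower and 3 higher. A gene was called at an adjusted p under 0.05 in limma's test (Benjamini-Hochberg adjustment over the 18413 genes tested) together with a change of at least 1.5-fold. By that rule 51.0% of all genes tested were called, 28.8% lower and 22.2% higher, so that 7 called genes of 10 is not far from what the whole table gave. The 3 KO and 3 control libraries did not overlap for the same 7 members, against 67.2% of all genes tested, 34.7% with KO all lower and 32.4% with KO all higher. The median log2 fold change was -0.60 over the members and -0.07 over all genes tested.

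The libraries held between 18242129 and 86906527 reads on genes, 1 read was worth 0.39 to 1.58 normalized counts, and between 17734 and 18625 genes were above 0. Sox9 itself stood at 5185, 6562 and 4921 normalized counts in control libraries and 52.6, 64.3 and 57.7 in KO libraries, a log2 fold change of -6.54 (SE 0.15). The libraries are labelled as olfactory bulb astrocytes. Of 14 astrocyte markers all 14 were lower in KO, with a summed level of 612617 to 684055 normalized counts in control libraries and 69195 to 82635 in KO libraries. Of 12 markers of microglia and macrophages 11 were higher, with sums of 190393 to 215747 and of 649498 to 753650. No marker of either list was at 0 in any library. Markers of oligodendrocytes (6 of 6), of their precursors (6 of 6) and of olfactory ensheathing cells (6 of 7) were also lower, and of 9 markers of border macrophages and monocytes 3 were lower and 3 higher. The KO libraries thus went against their label in part. The control libraries also held microglia and macrophage markers, at a median log2(normalized count + 1) of 14.08, 14.01 and 13.89. Their astrocyte markers had 14.56, 14.87 and 14.73. In such bulk samples fewer cells of a type and less RNA per cell cannot be told apart, and the part of these marker shifts in each result on the transporters was not tested.

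**Figure D1:**
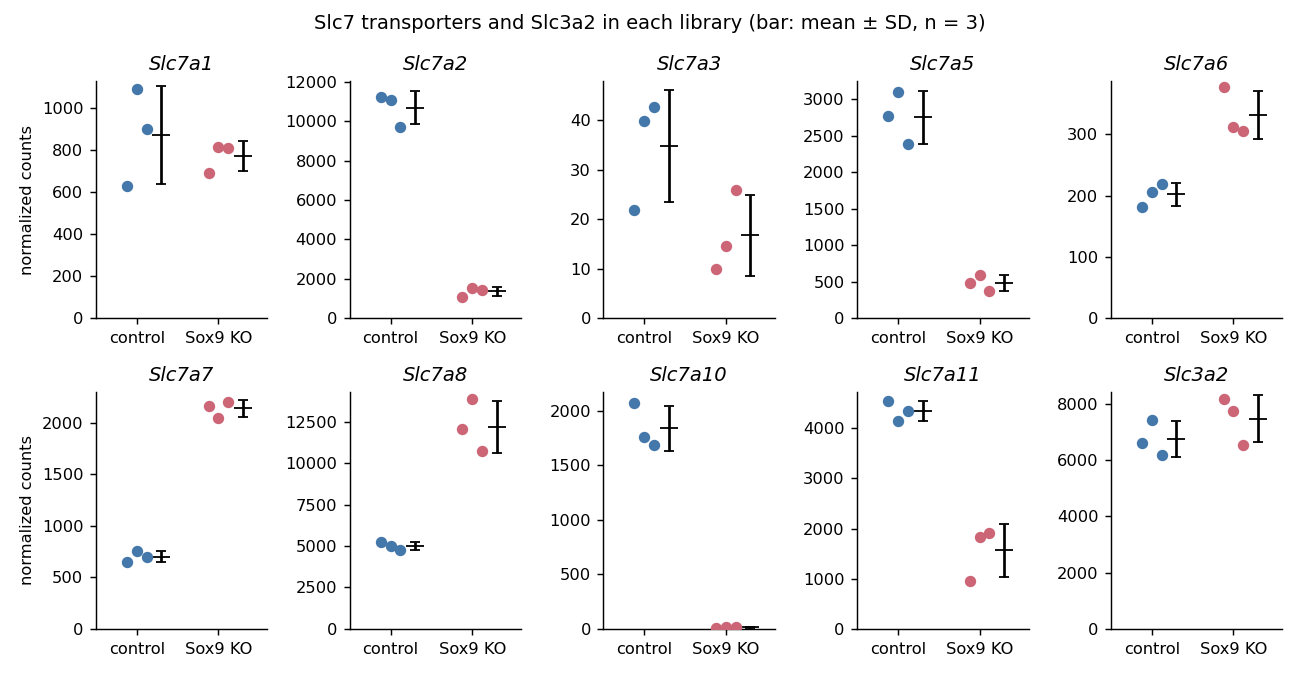
Normalized counts (vertical axis, linear from 0, own scale for each gene) of the 10 genes in the 3 control libraries (blue) and the 3 Sox9 KO libraries (red), with mean ± SD beside the points. Groups stood fully apart for 7 genes, and Slc7a10 had 1687 to 2071 normalized counts in the controls and 9.93 to 20.1 in KO.

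Slc7a10 encodes Asc-1, an exchanger of small neutral amino acids such as glycine, alanine and both forms of serine. The gene lies at chr7:35186385-35201114 on the plus strand (mm10). It had 2071, 1760 and 1687 normalized counts in control libraries 1 to 3, and 9.93, 20.1 and 16.7 in KO libraries 1 to 3, which rest on 10, 51 and 11 reads. Every KO library was far below the lowest control. The means were 1839 ± 204 and 15.6 ± 5.19 (SD, n = 3 each), so the control mean was 118 times the KO mean. The log2 fold change was -6.84 (SE 0.26, 95% interval -7.41 to -6.27, limma adjusted p = 1.8e-08). Of the 18413 genes tested, 2 had a lower log2 fold change. Slc7a10 shares 377 exon bases (17.9% of its exons) with Lrp3 on the other strand, and whether the counting used strand is not known from the sources at hand, so reads of the pair cannot be told apart there. Lrp3 had 647 ± 77.8 normalized counts in the controls and 48.0 ± 18.7 in KO.

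Slc7a11 encodes xCT, which takes up cystine in exchange for glutamate and so feeds glutathione synthesis. It lies at chr3:49892526-50443614 on the minus strand. Its normalized counts were 4549, 4142 and 4346 in the controls and 964, 1831 and 1913 in KO. KO library 1 was the lowest and stood well below the other KO libraries, and no KO library reached the controls. The means were 4346 ± 203 and 1569 ± 526 (SD, n = 3 each), and Slc7a11 fell by 1.53 on the log2 scale (SE 0.22, limma adjusted p = 0.00014), while with the libraries scaled to the astrocyte markers it was higher by 2.22.

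Slc7a5 encodes LAT1, the main carrier of large neutral amino acids such as leucine, phenylalanine and tryptophan, known for its place at the blood-brain barrier. It lies at chr8:121881150-121907694 on the minus strand. Slc7a5 had 2771, 3104 and 2383 normalized counts in the controls and 481, 596 and 366 in KO. The groups were well separated, with control library 3 and KO library 3 the lowest of their groups. The control mean of 2753 ± 361 was 5.72 times the KO mean of 481 ± 115 (SD, n = 3 each), and the log2 fold change was -2.53 (SE 0.17, limma adjusted p = 6.1e-07), while scaling to the astrocyte markers turned it to 1.22. Among 8 markers of endothelial cells, in which LAT1 is well known, 4 were lower (Cldn5, Tek, Slco1a4 and Ly6c1) and 2 were higher (Flt1 and Kdr), with summed levels of 2078 to 3501 normalized counts in the controls and 1835 to 2428 in KO.

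Slc7a8 encodes LAT2, which shares large neutral substrates with LAT1 and also takes small ones. It lies at chr14:54722209-54781946 on the minus strand. Its normalized counts were 5239, 5007 and 4759 in the controls and 12047, 13860 and 10718 in KO. The lowest KO library was above the highest control. The mean rose from 5002 ± 240 to 12208 ± 1578 (SD, n = 3 each), 2.44-fold, with a log2 fold change of 1.28 (SE 0.11, limma adjusted p = 2.4e-06).

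Slc7a7 and Slc7a6 encode y+LAT1 and y+LAT2, which exchange cationic amino acids for neutral ones and sodium. Slc7a7 is known for its use in macrophages, the gut and the kidney. At chr14:54369442-54417780 on the minus strand, it lies 304 kb from Slc7a8, on the same strand. Slc7a7 had 652, 754 and 703 normalized counts in the controls and 2169, 2050 and 2207 in KO. Each KO library was above every control, and neither group varied much. The mean went from 703 ± 51.2 to 2142 ± 82.0 (SD, n = 3 each), 3.05-fold, and the log2 fold change was 1.61 (SE 0.10, limma adjusted p = 3.4e-07), the highest of the 10 genes in this fit. Slc7a7 shares 232 exon bases (7.0%) with Oxa1l on the other strand, which had 1694 ± 25.5 normalized counts in the controls and 1737 ± 190 in KO.

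Slc7a6 lies at chr8:106168857-106198706 on the plus strand. Slc7a6 had 181, 206 and 219 normalized counts in the controls and 377, 313 and 305 in KO. The groups did not overlap, and KO library 1 was the highest. The mean rose 1.64-fold from 202 ± 19.2 to 332 ± 39.6 (SD, n = 3 each), with a log2 fold change of 0.71 (SE 0.17, limma adjusted p = 0.0041). The call ended when every library was scaled to the same total, where the log2 fold change was 0.47, and when that total left out Rn45s, where it was 0.38.

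Slc3a2 encodes the heavy chain, 4F2hc or CD98, which has no transport activity of its own and brings the light chains to the plasma membrane. It lies at chr19:8706882-8723369 on the minus strand. Slc3a2 had 6604, 7426 and 6172 normalized counts in the controls and 8154, 7730 and 6526 in KO. The groups overlapped, since KO library 3 was below control libraries 1 and 2. The means were 6734 ± 637 and 7470 ± 844 (SD, n = 3 each), with a log2 fold change of 0.15 (SE 0.11, 95% interval -0.10 to 0.39, limma adjusted p = 0.27). The sign turned under other scalings, to -0.10 at the same total, -0.18 at the same total without Rn45s and -0.28 after quantile normalization, whereas scaling to the astrocyte markers gave 3.91 and a call. The 95% interval above gives the differences compatible with these 3 libraries a group, before such rescaling.

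Slc7a2 encodes CAT-2, a cationic transporter known to be induced together with arginine-using enzymes in activated macrophages. It lies at chr8:40862396-40922308 on the plus strand. Its normalized counts were 11255, 11095 and 9736 in the controls and 1093, 1559 and 1443 in KO. All KO libraries were far below all controls. The control mean of 10695 ± 835 was 7.84 times the KO mean of 1365 ± 242 (SD, n = 3 each), and Slc7a2 fell by 2.98 on the log2 scale (SE 0.13, limma adjusted p = 4.0e-08), while scaling to the astrocyte markers turned it to 0.78. Of its exons 635 bases (6.95%) are shared with a non-coding gene on the other strand, Gm26584, whose counts were not analysed here.

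Slc7a1 encodes CAT-1, the cationic transporter found in most cell types, and lies at chr5:148327410-148399904 on the minus strand. Slc7a1 had 627, 1089 and 900 normalized counts in the controls and 691, 812 and 810 in KO. The KO libraries all lay within the range of the controls. The means were 872 ± 232 and 771 ± 69.4 (SD, n = 3 each), and the log2 fold change of -0.14 (SE 0.18, 95% interval -0.56 to 0.27, limma adjusted p = 0.52) was not called. Without control library 2 it was 0.034, and scaled to the astrocyte markers it was 3.61 and called higher.

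Slc7a3 encodes CAT-3, a cationic transporter known from neurons, and lies at chrX:101079210-101086020 on the minus strand. Slc7a3 had 21.9, 39.9 and 42.6 normalized counts in the controls and 9.93, 14.6 and 25.8 in KO, where 10, 37 and 17 reads were counted. KO library 3 was above control library 1. The log2 fold change was -1.05 (SE 0.47, 95% interval -2.11 to 0.0031, limma adjusted p = 0.078) and was not called, although leaving out control library 1 or KO library 3 gave -1.35 and -1.40 with calls. Scaling to the same total gave -1.28, also a call, and scaling to the astrocyte markers turned it to 2.53. Of 11 neuron markers 10 were lower, with summed levels of 25503 to 32554 normalized counts in the controls and 3661 to 6134 in KO.

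**Figure D2:**
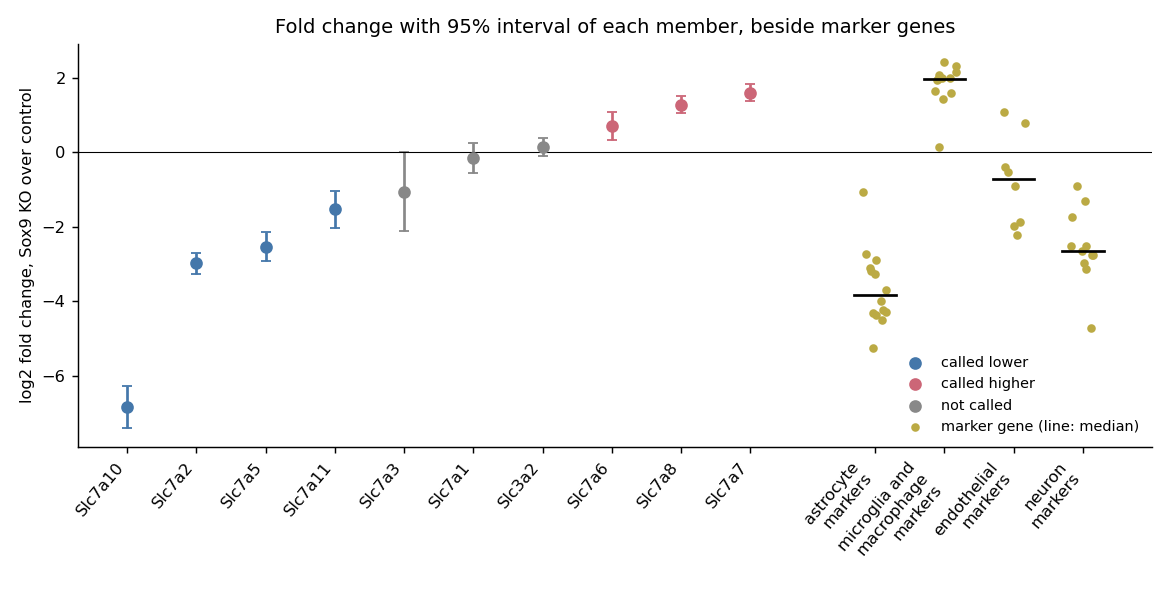
Log2 fold change, Sox9 KO over control (vertical axis), of the 10 genes with 95% intervals from limma, in order, beside the single genes of 4 marker lists (dots, with the median as a line). Values ran from -6.84 for Slc7a10 to 1.61 for Slc7a7, and the astrocyte and microglia markers had medians of -3.84 and 1.98, while scaling to the astrocyte markers turned Slc7a1, Slc7a2, Slc7a3, Slc7a5 and Slc7a11 to higher values.

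Levels of different genes were compared as normalized counts per kilobase of exon. In the controls the order was Slc3a2 (1908 ± 180 per kb, SD, n = 3), Slc7a2 (1171 ± 91.4), Slc7a8 (999 ± 48.0), Slc7a10 (871 ± 96.6), Slc7a5 (742 ± 97.2), Slc7a11 (312 ± 14.6), Slc7a7 (212 ± 15.5), Slc7a1 (75.6 ± 20.1), Slc7a6 (44.2 ± 4.21) and Slc7a3 (9.20 ± 2.97). Slc7a10 overlapped with its neighbours Slc7a8 and Slc7a5 in this order, and the other neighbours stood apart. In KO the order became Slc7a8 (2439 ± 315), Slc3a2 (2117 ± 239), Slc7a7 (646 ± 24.8), Slc7a2 (149 ± 26.5), Slc7a5 (130 ± 31.0), Slc7a11 (113 ± 37.8), Slc7a6 (72.6 ± 8.66), Slc7a1 (66.9 ± 6.02), Slc7a10 (7.39 ± 2.46) and Slc7a3 (4.44 ± 2.16). There Slc7a8 overlapped with Slc3a2, each neighbouring pair from Slc7a2 to Slc7a1 overlapped, and so did Slc7a10 and Slc7a3. Slc7a10 thus went from the fourth place to the ninth, beside Slc7a3, and Slc7a7 from the seventh to the third.

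The summed level of the 6 light chains per kb was 3338, 3241 and 2965 normalized counts per kb in the controls and 3348, 3758 and 3118 in KO. The groups overlapped (3181 ± 194 and 3408 ± 324, SD, n = 3 each, exact permutation p = 0.40, two-sided). With 3 libraries against 3, the smallest two-sided p of this test is 0.10, so it cannot pass 0.05. What differed was the make-up of the sum, which does not depend on how a library is scaled. Slc7a10 took 29.4%, 25.7% and 26.9% of it in the controls and 0.14%, 0.25% and 0.25% in KO, a difference of -27.1 percentage points (exact permutation p = 0.10, the smallest possible) that was -12.3 points with no correction for length. Slc7a5 took 22.4%, 25.8% and 21.7% in the controls and 3.88%, 4.28% and 3.17% in KO. The share of Slc7a11 was 9.83% ± 0.68 in the controls and 3.32% ± 1.18 in KO (SD, n = 3 each). These are the 3 light chains that were called lower, and no share of theirs in KO reached one in the controls.

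Slc7a8 made up 31.4%, 30.9% and 32.1% of the light chain sum in the controls and 71.9%, 73.7% and 68.7% in KO. Slc7a7 made up 5.89%, 7.02% and 7.15% in the controls and 19.5%, 16.5% and 21.4% in KO. Slc7a6, the third light chain that was called higher, stayed a small part at 1.40% ± 0.21 and 2.14% ± 0.32 (SD, n = 3 each). For each of the 6 light chains the shares of the groups did not overlap (exact permutation p = 0.10 each, the smallest possible). Without Slc7a8 the light chain sum was 2182 ± 148 per kb in the controls and 969 ± 25.0 in KO, and without Slc7a10 it was 2310 ± 128 and 3400 ± 323 (SD, n = 3 each).

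**Figure D3:**
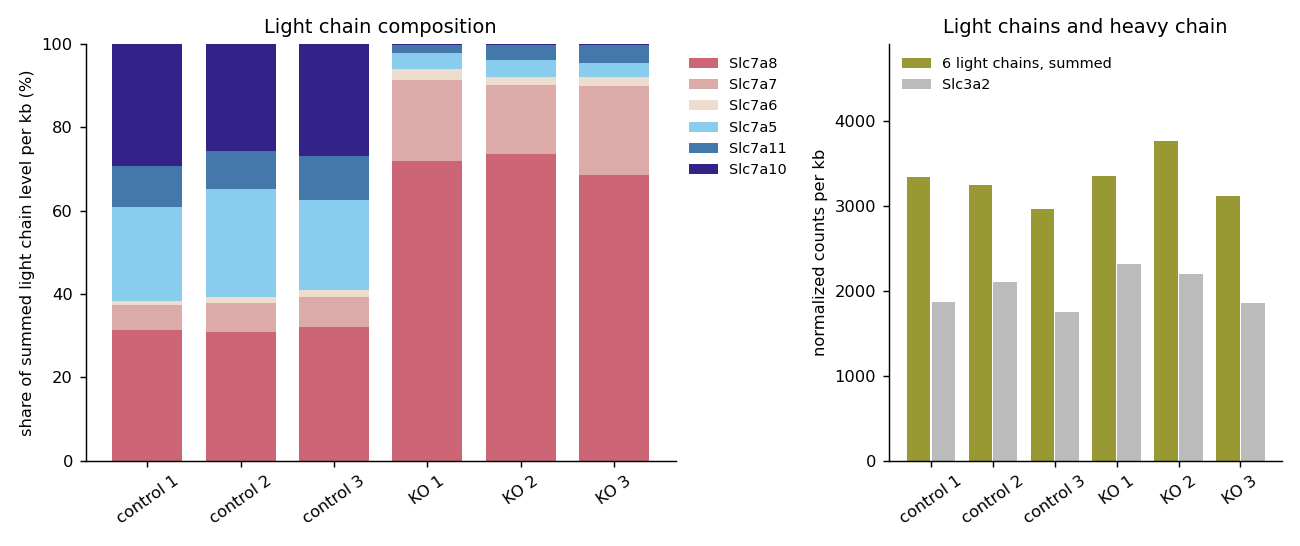
Left, share (%) of each light chain in the summed light chain level per kb in each library, from 0 to 100. Right, the summed level of the 6 light chains and the level of Slc3a2 in normalized counts per kb. Slc7a8 grew from 31.4% ± 0.61 to 71.4% ± 2.54 (SD, n = 3 each) and Slc7a10 shrank from 27.4% ± 1.87 to 0.22% ± 0.065, while the sums and Slc3a2 overlapped between groups.

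Pairs of related light chains, compared within each library, stood in a different balance in KO than in the controls. LAT2 to LAT1, that is Slc7a8 to Slc7a5 per kb, was 1.4, 1.2 and 1.5 in the controls and 18.5, 17.2 and 21.7 in KO. Both genes were thus expressed at similar levels in the controls and apart by more than 17-fold in each KO library. The ratio of Slc7a7 to Slc7a6, the 2 y+L exchangers, was 4.81 ± 0.34 in the controls and 8.98 ± 1.02 in KO, and that of Slc7a11 to Slc7a10, the light chains for cystine and for small neutral amino acids, was 0.36 ± 0.029 and 15.3 ± 1.85 (SD, n = 3 each). Neither ratio overlapped between groups (exact permutation p = 0.10 each, the smallest possible). The libraries held markers of several cell types that shifted between groups, and the part of those shifts in these ratios was not tested.

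The summed light chains stood to the heavy chain, per kb, as 1.78, 1.54 and 1.70 in the controls and 1.45, 1.72 and 1.69 in KO. The groups overlapped, with a difference of -0.05 on the log2 scale (exact permutation p = 0.60). This value turned to 0.023 with no correction for length, to 0.046 with the length of the longest transcript and to 0.026 without KO library 1. With Slc7a10 left out the ratio was 1.21 ± 0.061 in the controls and 1.61 ± 0.15 in KO (SD, n = 3 each), and the groups no longer overlapped.

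Among the cationic transporters the summed level per kb was 1256 ± 88.1 in the controls and 221 ± 33.7 in KO (SD, n = 3 each). Slc7a2 held 95.3%, 92.0% and 92.3% of it in the controls and 65.7%, 69.7% and 67.2% in KO (exact permutation p = 0.10, the smallest possible). Slc7a1, whose own level was not called, held 6.04% ± 1.6 in the controls and 30.5% ± 2.13 in KO, and Slc7a3 held 0.74% ± 0.27 and 1.97% ± 0.81 (SD, n = 3 each). Slc7a2 was the most abundant cationic transporter in all 6 libraries.

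Since the astrocyte markers moved between the groups, each member was also set against them within its library. The median marker level, log2(normalized count + 1), was 14.56, 14.87 and 14.73 in the controls and 10.46, 10.84 and 10.94 in KO, a difference of -3.97. Against this median 9 of the 10 genes were higher in KO. All genes tested had a median log2 fold change of -0.07, so a typical gene is also higher against this reference, and the count of 9 does not set the members apart. Slc7a10 was lower, with a difference of -2.87 on the log2 scale, from -3.88 ± 0.29 to -6.75 ± 0.29 (SD, n = 3 each). No library of one group reached the other (exact permutation p = 0.10, the smallest possible), and the log2 fold change of Slc7a10, -6.84, was below that of each of the 14 markers, which ran from -5.25 to -1.07. Among the other members called lower, Slc7a2 was 0.99 higher in KO relative to the markers, Slc7a5 1.44 and Slc7a11 2.44. These 3 fell, but by less than the median astrocyte marker.

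The members called higher were likewise set against the 12 microglia and macrophage markers, a comparison chosen after the values were seen. Their median log2 level rose by 1.90 between the groups. Relative to it Slc7a7 differed by -0.30, with groups that overlapped (exact permutation p = 0.20), and Slc7a8 by -0.62 with groups that did not (exact permutation p = 0.10, the smallest possible). Slc7a6 differed by -1.19 and Slc3a2 by -1.76, and neither overlapped. Slc7a7 was thus the member nearest to these markers in its change.

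The genes whose 6 log2 values were most like those of Slc7a10, by the distance between centred values over 11925 genes with a mean of at least 100 normalized counts, were Sox9 (distance 0.75), C030018K13Rik (1.02) and Wnt7b (1.05). For Slc7a7 they were Ptbp3 (0.082), Atp7a (0.11) and Wrn (0.12). Each of these distances is over the same 6 libraries and is led by the difference between the groups.

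The upstream sequence of Slc7a10 and Slc7a11 is shown because both genes were lower in KO, and because matches to the motifs of SOX factors and of stress response factors can be read against it. RefSeq promoter entries (GRCm38.p6, the patch release of mm10) were matched for 7 of the 10 members, with 13 start sites, and not for Slc7a2, Slc7a3 and Slc7a5. The 250 bases before each start were searched on both strands for ACAAAG and ACAATG (SOX), TGATGNAA (ATF4) and TGACNNNGC (NRF2), and no matches overlapped each other in the members' windows. Matches are in capitals and the sequences run 5′ to 3′ towards the start, for Slc7a10 at chr7:35186135-35186384 on the plus strand and for Slc7a11 at chr3:50443614-50443863 on the minus strand.
Slc7a10: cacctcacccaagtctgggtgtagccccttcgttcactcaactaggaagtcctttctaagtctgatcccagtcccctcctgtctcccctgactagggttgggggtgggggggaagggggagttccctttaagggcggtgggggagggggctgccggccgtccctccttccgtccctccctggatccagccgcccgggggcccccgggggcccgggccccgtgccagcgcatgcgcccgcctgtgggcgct
Slc7a11: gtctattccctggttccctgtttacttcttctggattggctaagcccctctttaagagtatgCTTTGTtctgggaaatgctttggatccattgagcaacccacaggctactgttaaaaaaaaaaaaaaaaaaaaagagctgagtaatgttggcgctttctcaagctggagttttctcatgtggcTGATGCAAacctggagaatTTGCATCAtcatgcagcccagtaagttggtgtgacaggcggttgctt

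In the Slc7a10 window, 69.6% of the bases were G or C and no motif matched. The Slc7a11 window, at 43.2%, held a SOX match on the opposite strand 188 to 183 bases before the start and 2 ATF4 matches, 66 to 59 bases before it and, on the opposite strand, 47 to 40 bases before it. A SOX match was in 4 of the 13 windows, from 3 members (Slc7a1, Slc7a7 and Slc7a11), against 25.2% of 32851 mouse windows of this length. The ATF4 letters were in 3 of the 13 windows (3.45% of all), from Slc7a11 and from Slc7a7, which was called higher. The NRF2 letters were in 2 (10.2% of all), from Slc7a1 and Slc7a6. Some windows of the same gene overlap, so the 13 are not independent. These are matches of letters, and nothing was measured at them.

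Of 7 further Slc7 and Slc3 genes 5 were tested. Slc7a4, a relative of the cationic transporters, had 196, 194 and 137 normalized counts in the controls and 46.7, 55.7 and 33.4 in KO (log2 fold change -1.94, SE 0.29, limma adjusted p = 0.00017). Slc7a15 had 38, 16.5 and 22.1 in the controls and 106, 116 and 176 in KO (2.38, SE 0.37, adjusted p = 0.00028). Each was separated between groups, in opposite directions, although scaling to the astrocyte markers turned Slc7a4 to 1.77. Slc7a14, an intracellular member, had 109 ± 21.4 and 70.6 ± 36.4 (SD, n = 3 each, limma adjusted p = 0.11), and Slc7a13 and Slc3a1, the heavy chain of kidney and gut, stayed below 21 normalized counts in each library. Slc7a9 and Slc7a12 were listed at 0 in all 6 libraries. So was Ass1, and Oaz1, a gene in wide use, had 0 to 4 reads per library, so a value of 0 here does not limit expression.

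Outside the family, the genes that share the work of the Slc7 carriers were called in both directions, at shares not far from those of the whole table. Over 5 further lists, and counting the Slc7 and Slc3 genes above, 106 different genes were tested, of which 36 were lower and 31 were higher, against 28.8% lower and 22.2% higher over all genes tested, while with the libraries scaled to the astrocyte markers 1 was lower and 97 were higher. Scaling to the astrocyte markers moved the median log2 fold change of all genes tested by 3.57, so the count of 97 does not by itself set the lists apart. Scaling to the same total without Rn45s left 17 higher, and quantile normalization left 28 lower. These scalings moved the median of all genes tested by -0.31 and 0.27, so the balance in the lists depends on the scaling. Of 26 other amino acid transporters, some of them (Slc36a1, Slc38a7 and Slc38a9) known from lysosomes, 10 were lower and 11 were higher (median log2 fold change 0.43), and 11 and 7 at the same total. Slc38a3, a glutamine transporter of astrocytes, went from 12765 ± 2032 to 517 ± 17.2 normalized counts, whereas the taurine transporter Slc6a6 went from 4016 ± 90.5 to 11967 ± 278 and Slc38a2, a carrier of small neutral amino acids, from 5607 ± 969 to 8378 ± 379 (SD, n = 3 each; limma adjusted p = 3.8e-09, 7.5e-08 and 0.0014). Slc38a2 was not called at the same total, where its log2 fold change was 0.35.

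Glutathione is the product that Slc7a11 feeds with cystine. Of 17 genes of its synthesis and recycling 6 were lower (Gclm, Gss, Ggt7, Gsr, Chac1 and Oplah) and 3 were higher (Ggt5, Anpep and Gpx1), and the median log2 fold change was -0.45. Over all genes tested 28.8% were lower and 22.2% were higher, so these counts are not far from those shares. At the same total without Rn45s 10 were lower and 2 higher, and that scaling moved the median of all genes tested by -0.31. Gclc, the catalytic subunit of the rate-limiting enzyme, had 3045 ± 365 normalized counts in the controls and 2214 ± 87.5 in KO (SD, n = 3 each, limma adjusted p = 0.0037), which was under 1.5-fold, and was called lower at the same total (-0.70). Gpx1, a glutathione peroxidase, rose from 2746 ± 560 to 5145 ± 893 (limma adjusted p = 0.00063), though not called at the same total without Rn45s (0.58), and Txnrd1, a thioredoxin reductase, was not called but was lower at the same total (-0.67). Of 17 regulators and targets of Atf4 and Nrf2, factors known to drive Slc7a11, 8 were lower and 6 were higher (median -0.66). Those lower were Asns, Atf5, Ddit4, Vldlr, Nqo1, Hmox1, Srxn1 and Gclm. Those higher were Atf4, Atf3, Cebpb, Nfe2l2, Keap1 and Bach1. The list pools regulators with targets, so its median describes neither alone. Scaled to the astrocyte markers none was lower and 17 were higher. That scaling also raised the median of all genes tested, by 3.57 on the log2 scale. Nfe2l2, which encodes Nrf2, had 11753 ± 1407 in the controls and 22579 ± 1325 in KO, Atf3 had 7222 ± 1060 and 40685 ± 7045, and the Nrf2 target Hmox1 had 9955 ± 2436 and 3977 ± 398 (SD, n = 3 each; limma adjusted p = 2.3e-05, 2.1e-07 and 6.6e-05). After quantile normalization Nfe2l2 was not called (0.33).

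Of 18 tested genes of arginine and polyamine metabolism, which the cationic carriers supply, 5 were lower (Nos1, Nos3, Azin2, Oaz2 and Srm) and 5 were higher (Arg1, Asl, Gatm, Sat1 and Paox), and the median log2 fold change was 0.43. Over all genes tested 28.8% were lower and 22.2% were higher, so these counts are near those shares. At the same total without Rn45s 7 were lower and 3 higher, and that scaling moved the median of all genes tested by -0.31. Sat1, which starts polyamine breakdown, went from 4930 ± 417 to 16296 ± 475 normalized counts, and Gatm, the first enzyme of creatine synthesis, from 6825 ± 658 to 12348 ± 2868 (SD, n = 3 each; limma adjusted p = 1.0e-07 and 0.00086), though Gatm was not called at the same total without Rn45s (0.51). Odc1, which makes the first polyamine, had 4922 ± 294 and 4941 ± 926, with an interval of its log2 fold change of -0.29 to 0.27.

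Leucine brought in by Slc7a5 and Slc7a8 is sensed by mTORC1 and broken down by the branched-chain enzymes. A list of 25 genes covered branched-chain breakdown, amino acid sensing and the regulation of mTORC1. Of these 7 were lower (Bcat1, Bckdhb, Dbt, Rragb, Rragd, Sesn2 and Sesn3) and 5 were higher (Bcat2, Rragc, Sesn1, Gpr155 and Eif2ak4). These counts are near the shares over all genes tested, 28.8% lower and 22.2% higher. The median log2 fold change was 0.05. At the same total without Rn45s 11 were lower and 1 was higher, and scaled to the astrocyte markers none was lower and 24 were higher. These scalings moved the median of all genes tested by -0.31 and 3.57 on the log2 scale, in that order. Rragc, a GTPase that takes the amino acid signal to mTORC1, went from 2055 ± 63.5 to 4153 ± 336 normalized counts (SD, n = 3 each, limma adjusted p = 5.0e-06). Gpr155, a lysosomal sensor that acts on mTORC1, rose from 3703 ± 469 to 6867 ± 802, while Mtor itself had 3333 ± 108 and 2745 ± 23.0 and stayed under 1.5-fold. At the same total without Rn45s Gpr155 was not called (0.57) and Mtor was called lower (-0.61).

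**Figure D4:**
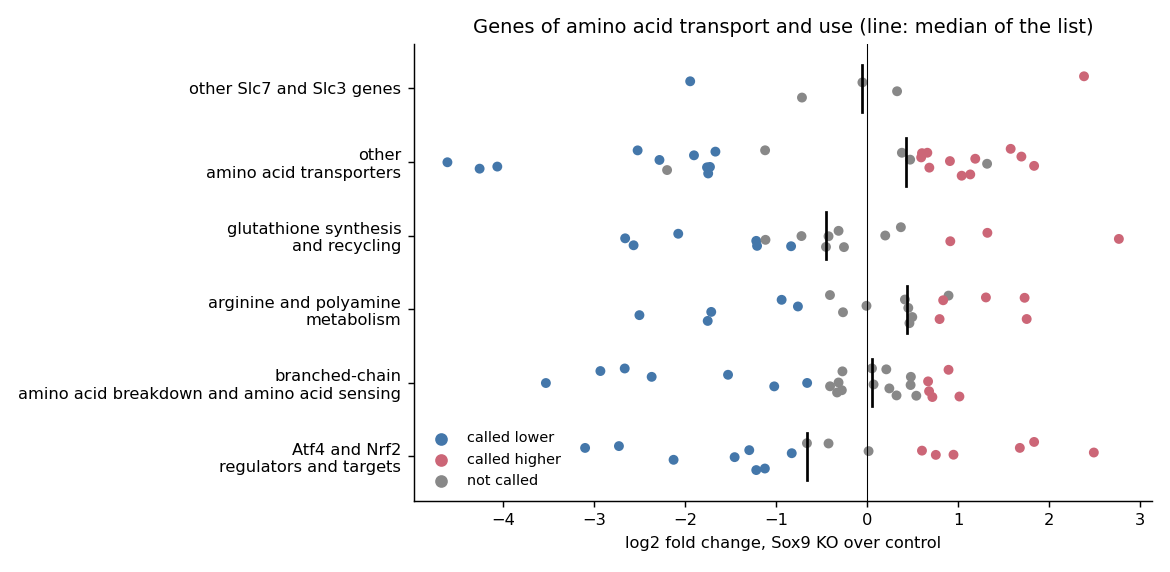
Log2 fold change, Sox9 KO over control (horizontal axis), of each tested gene in 6 lists of amino acid transport and use, coloured by call, with the median as a line. Every list held genes called lower and genes called higher, with medians from -0.66 to 0.43, while with the libraries scaled to the astrocyte markers 97 of the 106 genes were called higher. That scaling moved the median log2 fold change of all genes tested by 3.57.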

How the data were processed

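Per the submitters' processing notes, alignment was to mm10 with STAR 2.5.0a and normalization with DESeq2 1.20.0. Gene counts came from GenomicAlignments, by an annotation and a strand setting that are not stated in the sources at hand. The signal values that the authors deposited are named RPM, but 100% of them were whole reads, within 0.01 read, over 1 size factor for each library, hence the name normalized counts. Genes with a mean of at least 1 (18413 of 24421) were compared with limma 3.58.1 in R 4.3.3, with a variance trend, on log2(normalized count + 1), two-sided, so changes of low genes are understated. The recovered reads were also tested with edgeR 4.0.16 and DESeq2 1.42.0. All 3 tools were checked on simulated data in which few genes changed. That check does not bear on data where 51.0% of genes are called. Shares, ratios and marker differences used exact permutation tests. Levels between genes were divided by the exon length of GENCODE vM21 (GRCm38). Fold changes are KO over control. The genes named are the 10 members, Sox9, the other tested Slc7 and Slc3 genes, the 3 highest genes of each list and the 3 genes most like Slc7a10 and Slc7a7. Rn45s, Lrp3, Oxa1l, Gm26584, Ass1, Oaz1 and the other called genes of the lists were named after their values were seen. Members and lists were chosen with earlier results of these data known. Coordinates and antisense overlaps come from the same annotation. The other data of the study were not analysed here.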

Additional observations from a re-analysis of the deposited data

How the results depend on the processing

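Alternatives covered the tool, the scaling, the pseudocount, the filter on low genes, the fold threshold, the variance trend, the replicate block and the omission of single libraries. The counts of 4 members lower and 3 higher stayed within 1.5 times under all of these but scaling to the astrocyte markers, which gave 1 lower and 9 higher (1 and 97 for the 106 list genes) and turned Slc7a1 to 3.61, Slc7a2 to 0.78, Slc7a3 to 2.53, Slc7a5 to 1.22 and Slc7a11 to 2.22. That scaling moved the median of all genes by 3.57 on the log2 scale, the same total by -0.23, the same total without Rn45s by -0.31 and quantile normalization by 0.27. Under the last 3, Slc3a2 turned to -0.10, -0.18 and -0.28. The list genes called higher were 17 at the same total without Rn45s and 16 at 2-fold, against 31. Slc7a1 ran from -0.36 to 0.034 as single libraries were left out and turned without control library 2. Slc7a3 was called at the same total (-1.28) and without Rn45s (-1.36). The log2 fold change of Slc7a10 was -6.74 in edgeR and -6.79 in DESeq2. Leaving out single libraries gave 4 to 5 members lower, 3 to 3 higher, 33 to 37 list genes lower and 29 to 32 higher, differences of -28.0 to -26.1 points in the Slc7a10 share and -26.8 to -24.6 in the Slc7a2 share, and a light to heavy chain ratio of -0.11 to 0.026 on the log2 scale.

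The Slc7a10 share differed by -12.3 points with no length correction, -24.7 with the longest transcript and -39.1 without Slc7a8 in the sum, an alternative chosen after seeing the data. The Slc7a2 share differed by -29.0 and -30.8 points with no length correction and the longest transcript, and the light to heavy chain ratio by 0.023, 0.046 and, without Slc7a10, 0.41. The cause of these moves beyond the length used was not tested.

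Same-numbered libraries showed no shared shift. Their deviations had correlations of -0.051, -0.013 and -0.013, against -0.018 to 0.034 for libraries of different numbers. Whether samples were paired in handling cannot be told from these correlations. With the replicate number as a block, 4 members were lower and 3 higher, with 36 and 31 list genes.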
